A study of Macaca mulatta with 28 samples.

Results

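Brain-derived neurotrophic factor (BDNF) and neurotrophin 3 (NTF3) are secreted peptides that act on the receptors TrkB (gene NTRK2) and TrkC (gene NTRK3). The rows of these 4 genes, and of their 29 exons, were taken by symbol from 15521 genes and 156345 exons measured in a tissue block around the central nucleus of the amygdala of 28 male rhesus macaques. All 28 animals drank ethanol by choice. After induction on 4% (w/v) ethanol they had access for 22 hours a day over more than 12 months, with meals and water at hand. No animal without ethanol was among them, and each gave 1 library of stranded total RNA depleted of ribosomal RNA.

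By intake, 6 animals are labelled very heavy drinkers (VHD), 7 heavy (HD), 5 binge (BD) and 10 low (LD). A BD animal drank 2 g/kg or more on 55% or more of its days and reached 80 mg/dl of ethanol in blood no less than yearly. The HD mark was 3 g/kg or more on 20% or more of days. For VHD the daily mean was above 3 g/kg, with over 4 g/kg on 10% or more of the days with access. LD animals met none of these marks. Here HD and VHD together (13 animals) are called heavy and LD and BD (15 animals) low. Cohort 4 had 8 animals, on average 8.24 years old at induction, cohort 5 had 7 (5.63 years), cohort 7a had 8 (4.18 years) and cohort 7b had 5 (5.69 years). After the second 6 months these ages were 9.98, 7.15, 5.7 and 7.18 years in cohorts 4, 5, 7a and 7b. Cohort 5 held no low animal, cohorts 4 and 7b held 1 heavy animal each, and VHD and LD animals met only in cohort 7a. Age and cohort therefore cannot be told apart, and gene levels and exon use were compared between categories with cohort as a term.

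As background, BDNF is made mainly by excitatory neurons, in an amount that depends on their activity, and is cut from a precursor that can also bind p75 (gene NGFR) together with sortilin (gene SORT1). Full-length TrkB and TrkC carry a tyrosine kinase that signals through adaptor proteins to the MAP kinase, PI3 kinase and phospholipase C pathways. Both receptor genes also give truncated receptors without the kinase. In adult brain truncated TrkB is abundant in astrocytes, and full-length TrkB is the main form in neurons. BDNF signalling in the amygdala has been studied in relation to anxiety and ethanol intake in rodents.

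Reads over gene exons numbered 1910514 to 25928489 per library, with a median of 16444833. Values are normalized reads, the reads over a gene's exons scaled by 1 upper-quartile factor per library. In these units 3 reads corresponded to 1.82 to 24.1, depending on the library. The 3 shallowest libraries (BD replicate 1, LD replicate 1 and HD replicate 1) all belong to cohort 4. The dissected block varied between animals. CHAT, a marker of cholinergic basal forebrain neurons, reached 1450 to 1687 normalized reads in VHD replicates 3, 4 and 5 and was at 0 in BD replicate 1 and HD replicate 6. TBR1, a marker of cortical and basolateral glutamatergic neurons, ranged from 0 in HD replicate 4 to 694 in HD replicate 6. The part of this variation in the results below was not tested unless a value is given. In bulk tissue, fewer cells of a type and less RNA per cell cannot be told apart.

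The rows for both receptors held the exons of a truncated receptor, most of which full-length receptors share. The NTRK2 row, chr9:10110715-10256296 in the coordinates of the exon table (genome build not given in the sources used here), has 12 exons with 6672 bases in all. The NTRK3 row has 15 exons with 3872 bases on chromosome 14. Both contain the run of 75, 72 and 69 bases that encodes the leucine-rich repeats. By the order and lengths of their exons, neither row holds the exons that encode the kinase. The next row beyond the last exon was AGTPBP1 at 714240 bases for NTRK2 and KLHL25 at 2262885 bases for NTRK3. Kinase exons of either receptor were thus not analysed here, and the values of both genes describe the extracellular and transmembrane exons, which full-length and truncated receptors share, plus the end of a truncated receptor. A ratio of full-length to truncated receptor could not be formed. The truncated end was set against the shared exons instead.

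The end of truncated TrkB was taken as exon 12, 5173 bases at chr9:10110715-10115887, and it took 49.3% to 59.0% of the reads of NTRK2. For truncated TrkC the end is exon 14, with 135 bases, and exon 15, with 2104 bases. Exon 15 took 20.0% to 29.8% of the reads of NTRK3, and exon 14 took 1.71% to 4.23%. BDNF was a single exon of 4742 bases (chr11:38115626-38120367), so its alternative first exons, which give transcripts under different promoters, were not analysed here. NTF3 was a single exon of 1173 bases.

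**Figure D1:**
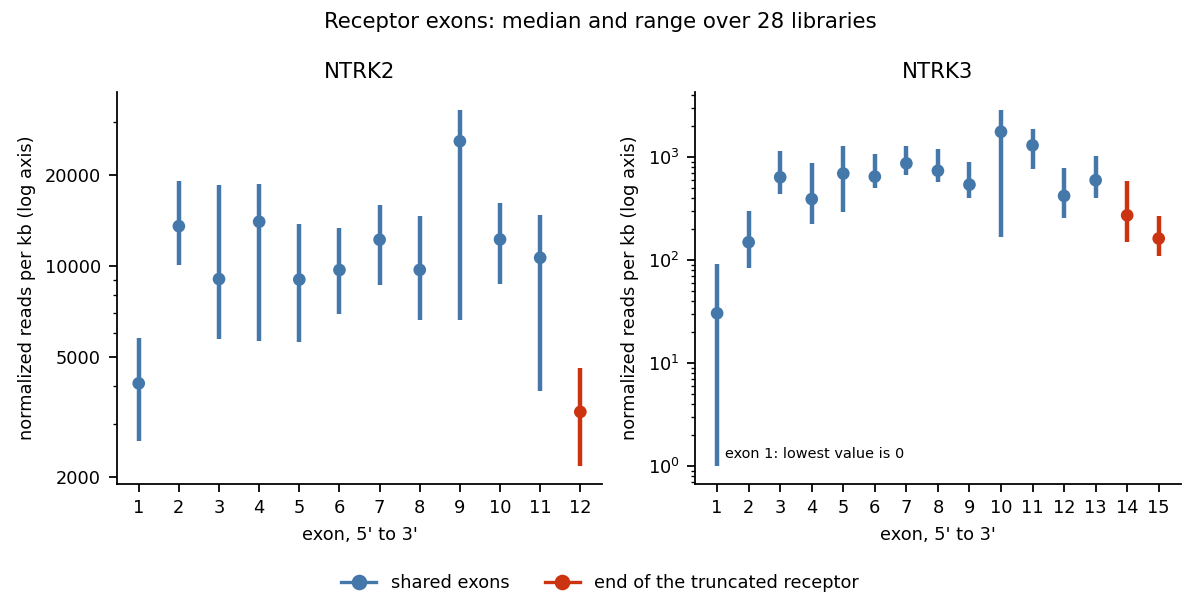
Normalized reads per kb (log axis) of each exon of NTRK2 and NTRK3 in order from 5′ to 3′. Points are medians and lines the range over 28 libraries, blue for exons that full-length and truncated receptors share and red for the end of the truncated receptor. NTRK2 exon 12 (median 3280 per kb) lies below the other exons of the gene, and NTRK3 exons 14 and 15 (medians 270.4 and 161 per kb) lie below exons 3 to 13.

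Per kb of exon, NTRK2 was the highest of the 4 genes, with a median of 4707 normalized reads per kb (range 3345 to 6279). NTRK3 followed at 332 per kb (272 to 482), BDNF at 34.5 per kb (3.34 to 129) and NTF3 at 1.27 per kb (0 to 6.77). The ranges of these 4 genes did not overlap, except that the lowest BDNF values lay within the range of NTF3. Among the relatives, SORT1 had a median of 1237 per kb. NGFR was at 23.95 per kb, and NTF4, the other ligand of TrkB, had 3 reads in all 28 libraries together.

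BDNF was the most variable of the 3 members that could be tested. It ranged from 15.8 to 610 normalized reads over the animals, a 38.5-fold span, against 1.88-fold for NTRK2 and 1.77-fold for NTRK3. In LD animals BDNF had a lowest value of 15.8, a median of 114 and a highest of 503. The 5 BD animals had 26.3, 167, 236, 249 and 610. HD animals ran from 18.2 to 551 with a median of 162, and VHD animals from 33.8 to 372 with a median of 135. Every category thus held both very low and high animals, and the categories overlapped almost wholly. The group means were 155 ± 118 (SD, n = 6) in VHD, 212 ± 202 (n = 7) in HD, 257 ± 216 (n = 5) in BD and 174 ± 175 (n = 10) in LD. Only 1 of 6 VHD animals was above the LD mean, and none was above the highest LD animal. The LD mean itself lay well above the LD median of 114, and the VHD median of 135 was also above that LD median.

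BDNF did not differ between heavy and low drinkers beyond its spread. The log2 difference was 0.69 (SE 0.68, 95% interval -0.71 to 2.09, adjusted p = 0.998 in limma over 13022 genes), and in this comparison 0% of all genes tested were called (0 of 13022, with 544 at an unadjusted p under 0.05, while edgeR called 0 and DESeq2 called 1). The value was 0.36 with edgeR, 0.35 with DESeq2 and 0.0067 without the cohort term, and it passed in none of these. The interval includes a change of 4.26-fold upward and one to 0.61 of the low level. Against LD, the fitted differences of BDNF were 0.64 for BD, 0.82 for HD and 1.04 for VHD (-0.86 to 2.94, adjusted p = 0.778), and the trend over the 4 ordered categories was 0.38 per step. The VHD value is positive although the VHD mean is the lowest of the 4. The fit uses logarithms and has cohort as a term. The mean of log2(BDNF + 1) was 6.94 in VHD and 6.66 in LD animals. The VHD minus LD difference was 0.28 without the cohort term, against 1.04 with it. Within cohorts, heavy minus low was 1.22 in cohort 7a (4 against 4), while the single heavy animals of cohorts 4 and 7b gave 0.70 and -0.65. The interaction of drinking with cohort did not pass the test for BDNF (adjusted p = 0.941), and none of 13022 genes passed it.

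The means of BDNF lay further apart between cohorts than between categories, but no cohort difference passed the adjusted threshold. Whether cohort or category mattered more was not tested, and the 2 are unevenly mixed. Cohorts 4 and 7a had 271 ± 203 (SD, n = 8) and 281 ± 182 (n = 8) normalized reads. Cohorts 5 and 7b had 89.7 ± 58.6 (n = 7) and 78.3 ± 72.1 (n = 5). The glutamatergic marker score described below had medians of 0.99 and 0.97 in cohorts 4 and 7a and of -0.30 and -1.51 in cohorts 5 and 7b, and its part in the cohort difference was not tested. The F test over cohorts with category as a term gave an unadjusted p of 0.021 and an adjusted p of 0.451. The youngest cohort (7a) and the oldest (4) had a log2 difference of 0.14 (-1.37 to 1.65) for BDNF, and its direction changed in several other settings.

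**Figure D2:**
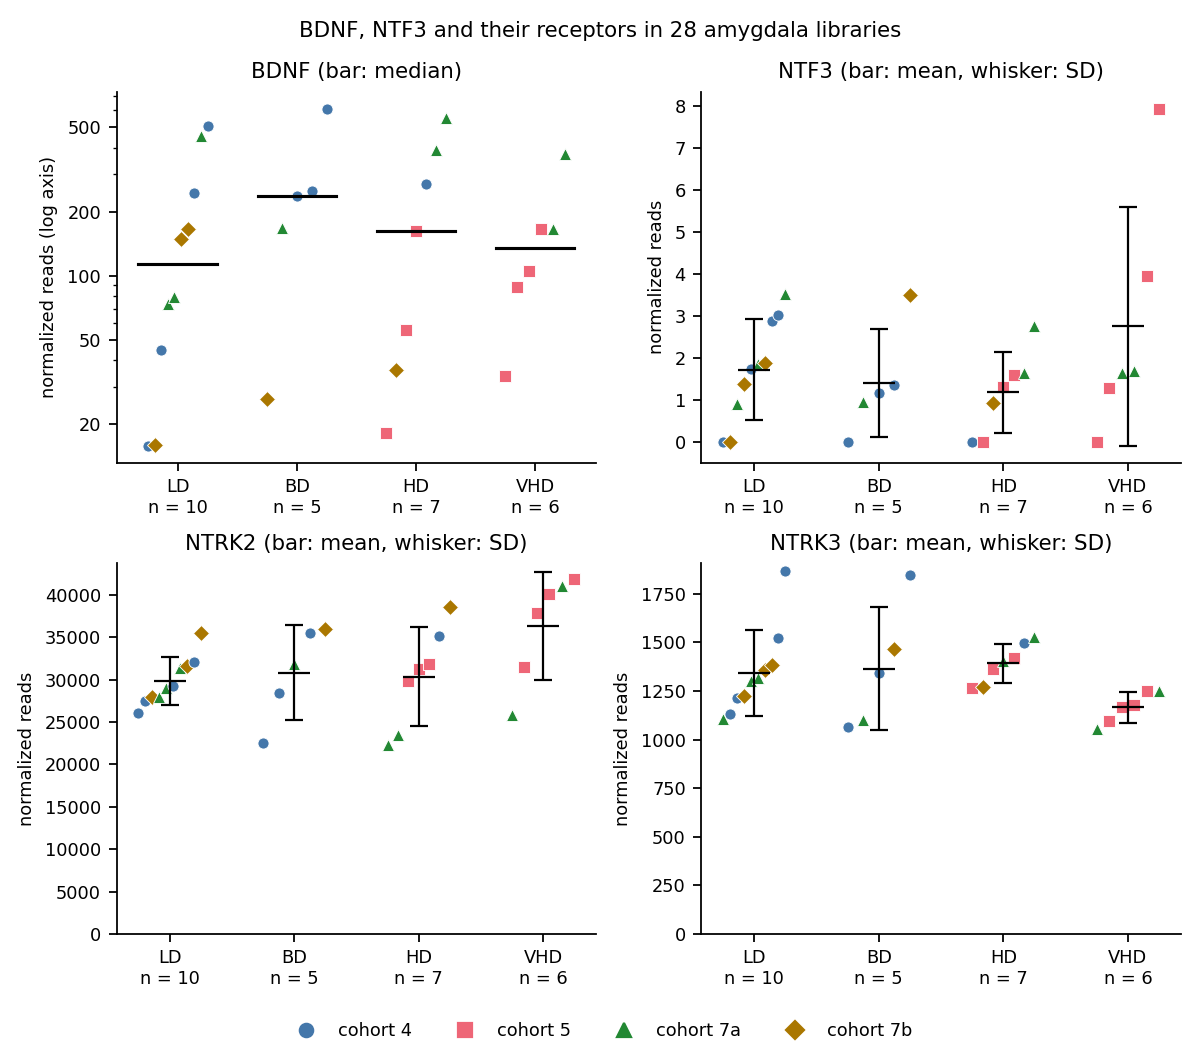
Normalized reads of BDNF (log axis), NTF3, NTRK2 and NTRK3 in each of 28 animals by drinking category, with colour and shape for cohort. BDNF bars are medians, the other bars means with SD. BDNF spans 15.8 to 610 within overlapping categories. For NTRK2, 4 of 6 VHD animals lie above the highest LD animal. For NTRK3, all 6 VHD animals lie below the LD mean. These counts take no account of cohort, and neither VHD minus LD difference passed the test.

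BDNF varied with the markers of cortical and basolateral glutamatergic neurons. A marker score was the mean of log2(value + 1) over the list's members, each centred on its mean over the animals. The glutamatergic list held 8 measured genes, among them TBR1, NEUROD6, NEUROD2, NRGN, CAMK2A, SLC30A3 and LMO4. Over 28 animals BDNF had a Pearson r of 0.892 and a Spearman rho of 0.899 with this score, each with a permutation p of 1e-05, the smallest that 100000 permutations can give, and adjusted p-values of 3e-05 and 2e-05 over 6 relations. It was 0.878 once the 2 most extreme scores were left out. Within cohorts r was 0.927 (cohort 4), 0.854 (cohort 5) and 0.816 (cohort 7a), and cohort 7b had too few animals. The 4 animals with the least BDNF (LD replicates 2 and 8, HD replicate 4 and BD replicate 5) had scores of -1.53 to -2.36, and the 4 with the most (BD replicate 2, HD replicate 5, LD replicates 4 and 5) had scores of 1.51 to 2.20. The score itself had medians of -0.56 in VHD, 0.65 in HD, -0.11 in BD and 0.38 in LD animals. With 3 marker scores (astrocytes, glutamatergic neurons, myelin) as covariates, the heavy minus low difference of BDNF was 0.27 and the VHD minus LD difference 0.38, and neither passed.

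The genes most like BDNF over the 28 animals, out of 11248 others with a mean of at least 50 normalized reads, were CLMP (r = 0.955), KCNJ3 (0.955), PIRT (0.954), NRN1 (0.951) and CDH10 (0.943). KCNJ3 encodes a potassium channel gated by G proteins, and NRN1 encodes neuritin, a small membrane protein of neurons. The most opposite were CAMK1G (-0.887) and DRD2 (-0.884), the D2 dopamine receptor, which is also a marker of striatal neurons. These coefficients share libraries and tissue block and are a description.

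NTF3, the ligand of TrkC, was at the limit of detection. All 28 libraries together held 53 reads of it. It had no read in 6 libraries, 1 to 3 reads in 18 and more than 3 in 4, with 8 reads at most. It did not reach the minimum of 10 normalized reads in any library and was not tested. Normalized reads began at 0 in every category and reached 3.52 in LD, 3.50 in BD, 2.75 in HD animals and 7.95 in VHD animals. All of these lie near the level of a few reads, and no difference was detectable at this depth. The highest value, 7.95, belonged to VHD replicate 4. NTF3 had no relation to the glutamatergic score that passed the test (r = -0.137, rho = -0.037, permutation p = 0.486 and 0.853, r = -0.265 without the 2 farthest animals).

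NTRK2 was highest in VHD animals. LD animals ranged from 26026 to 35499 normalized reads with a median of 29136. The BD animals had 22483, 28388, 31801, 35547 and 35960. HD animals ranged from 22316 to 38556 with a median of 31223. VHD animals ranged from 25869 to 41891 with a median of 38966. The means were 36376 ± 6370 (SD, n = 6) in VHD, 30342 ± 5845 (n = 7) in HD, 30836 ± 5593 (n = 5) in BD and 29819 ± 2801 (n = 10) in LD. Of the 6 VHD animals, 5 were above the LD mean and 4 above the highest LD animal, and VHD replicate 6 was below the lowest. VHD replicate 2 lay inside the LD range, so the groups overlapped. These counts take no account of cohort. In cohort 7a, the only one with both categories, VHD animals had 41081 and 25869 and LD animals 27970, 28990 and 31321.

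The NTRK2 difference between VHD and LD animals did not pass the test. It was 0.26 on the log2 scale (SE 0.15, -0.05 to 0.58), or 1.201-fold (0.97 to 1.49), with an unadjusted p of 0.094 and an adjusted p of 0.647, where 0% of genes were called (1116 at an unadjusted p under 0.05, with 0 called by edgeR and 4 by DESeq2). Heavy minus low was 0.05 (SE 0.12, -0.20 to 0.30, adjusted p = 0.998), which leaves room for changes up to 1.23-fold. HD minus LD was -0.01 and BD minus LD 0.05. Within cohorts heavy minus low was 0.30, -0.13 and 0.24 for cohorts 4, 7a and 7b. In cohort 7a the heavy animals lay far apart, with 41081 in VHD replicate 5 and 22316 and 23494 in HD replicates 5 and 6. Without the 3 shallowest libraries heavy minus low was -0.03.

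NTRK2 followed the astrocyte markers closely, and its relation to the other marker scores was not tested. The 4 animals with the least NTRK2 (HD replicates 5 and 6, BD replicate 2, VHD replicate 6) had the highest glutamatergic scores, 1.81 to 2.20. In the 4 with the most (VHD replicates 3, 4 and 5, HD replicate 7) the glutamatergic score was -1.67 to -1.17. Over 28 animals its r with the astrocyte score (GFAP, AQP4, SLC1A2, SLC1A3, ALDH1L1, GJA1, GJB6, S100B, FGFR3 and SOX9) was 0.874 and its rho 0.830, each with a permutation p of 1e-05 and adjusted p-values of 3e-05 and 2e-05. It was 0.838 without the 2 farthest animals, and 0.829, 0.739 and 0.977 within cohorts 4, 5 and 7a. The score had medians of 0.20 in VHD, -0.09 in HD, 0.04 in BD and -0.07 in LD animals, and the 10 markers summed to 171009 to 218926 normalized reads in LD and 181949 to 242534 in VHD animals. None of the 10 was at 0 in all libraries. Of the astrocyte markers, 8 of 10 had a fitted VHD minus LD difference above 0, with a median of 0.21 against 0.01 for all genes, and none passed the test. With the 3 marker scores as covariates the VHD minus LD difference of NTRK2 was -0.02 (-0.22 to 0.18). The myelin score had medians of -0.26 in LD and 0.38 in VHD animals.

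**Figure D3:**
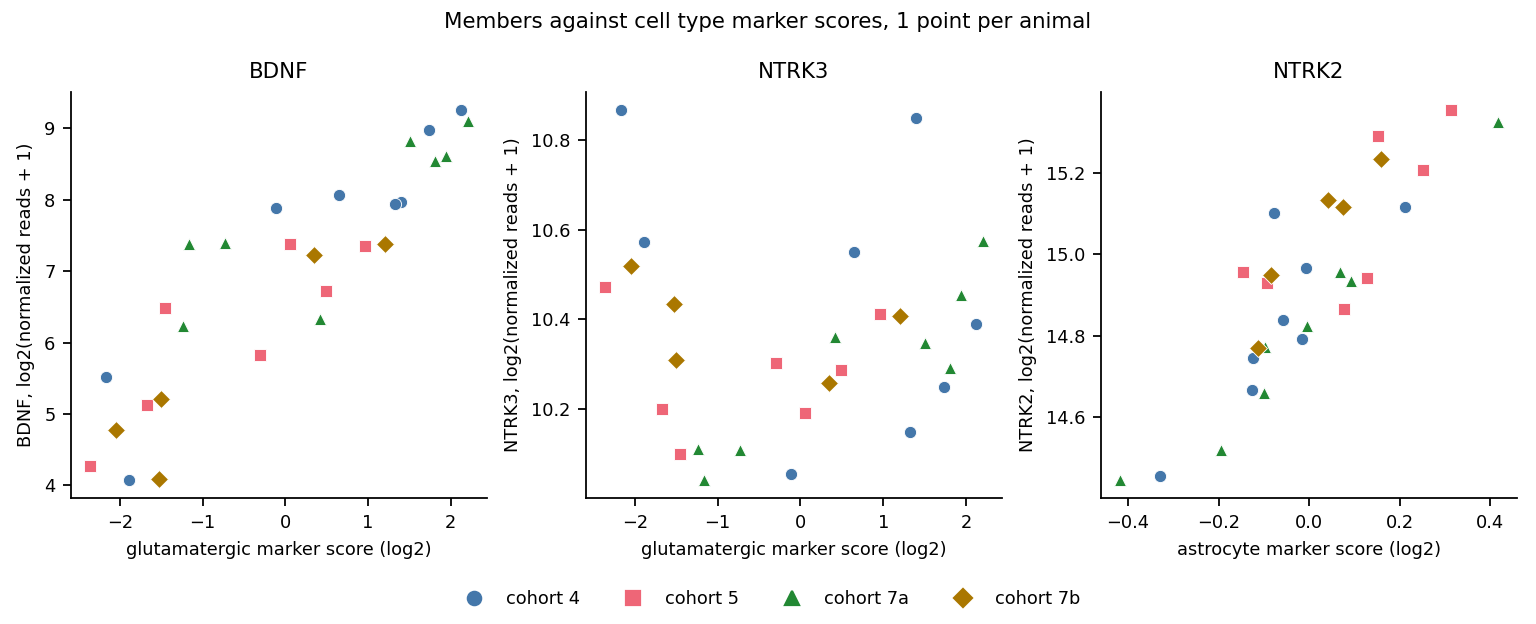
BDNF and NTRK3 against the glutamatergic marker score, and NTRK2 against the astrocyte marker score, as log2(normalized reads + 1), 1 point per animal with colour and shape for cohort. BDNF (r = 0.892) and NTRK2 (r = 0.874) rise with their scores in each cohort shown, while r for NTRK3 is 0.044 over all animals, 0.905 in cohort 7a and -0.395 in cohort 4.

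The genes most like NTRK2 were GRAMD3 (r = 0.899), GPR75 (0.879), ITGB8 (0.878), STAG2 (0.868) and CYBRD1 (0.865). ITGB8 encodes an integrin subunit and STAG2 a subunit of cohesin. Among the most opposite was FAM49A (-0.861).

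NTRK3 was lowest and least variable in VHD animals. They ranged from 1053 to 1252 normalized reads, with a mean of 1166 ± 80.0 (SD, n = 6). LD animals ranged from 1105 to 1867 with a median of 1308 and a mean of 1342 ± 222 (n = 10). The BD animals had 1062, 1103, 1341, 1466 and 1844, a mean of 1363 ± 316 (n = 5). HD animals ranged from 1263 to 1525 with a mean of 1391 ± 102 (n = 7). All 6 VHD animals were below the LD mean and 2 were below the lowest LD animal. The highest VHD animal (1252) was just below the lowest HD animal (1263), so these 2 categories did not overlap. That separation was seen in the values and was not tested by itself. How many of all genes separate VHD from HD animals was not counted. The 2 highest values of all, 1867 and 1844, came from the 2 shallowest libraries, LD replicate 1 and BD replicate 1.

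No difference of NTRK3 passed the test. VHD minus LD was -0.10 on the log2 scale (SE 0.14, -0.39 to 0.18, adjusted p = 0.865), HD minus LD 0.12 (-0.12 to 0.35), BD minus LD -0.02 and heavy minus low 0.06 (-0.16 to 0.28, adjusted p = 0.998). The VHD value turned to 0.12 with the 3 marker scores as covariates, and the heavy minus low value to -0.06 without the cohort term. Cohort 7a minus cohort 4 was -0.17 (-0.39 to 0.06, adjusted p = 0.714). Within cohorts heavy minus low was 0.10, 0.11 and -0.09 in cohorts 4, 7a and 7b.

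Unlike BDNF, NTRK3 had no overall relation to the glutamatergic score (r = 0.044, rho = 0.044, permutation p = 0.828 and 0.823, r = 0.282 without the 2 farthest animals). Within cohorts r was -0.395, 0.072 and 0.905 for cohorts 4, 5 and 7a. Whether the cohorts differ in this relation was not tested. The genes most like NTRK3 were ZNF551 (r = 0.809), NAT10 (0.770), POLR3A (0.768), CSMD1 (0.767) and DRP2 (0.766), and the most opposite were HYPK (-0.880) and ZNF775 (-0.825). NAT10 encodes an RNA acetyltransferase and POLR3A the largest subunit of RNA polymerase III.

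The truncated end of TrkB was measured against the shared exons as log2 of their reads per kb. Over the 28 animals this value was -1.57 ± 0.14 (SD), so exon 12 had fewer reads per kb than the exons before it. It was -1.46 ± 0.07 (n = 6) in VHD, -1.63 ± 0.17 (n = 7) in HD, -1.57 ± 0.08 (n = 5) in BD and -1.60 ± 0.15 (n = 10) in LD animals. VHD animals lay between -1.55 and -1.39 and LD animals between -1.83 and -1.38, so the ranges overlapped. VHD minus LD was 0.14, with an exact permutation p of 0.045 (8008 arrangements over all cohorts, without cohort as a term, two-sided) and an adjusted p of 0.271 over 6 tests. Within cohort 7a, the only one with both categories, the difference of 2 VHD and 3 LD animals was 0.00013, where 10 arrangements cannot give an exact p below 0.1. Heavy minus low within cohorts was -0.06 (exact p = 0.371) and cohort 7a minus cohort 4 was 0.10 (exact p = 0.113). No test of the truncated end passed after adjustment. The value rose with the astrocyte score (r = 0.686, permutation p = 1e-04, rho = 0.746, permutation p = 1e-05, adjusted p = 2e-04 and 2e-05), by 0.648, 0.743 and 0.750 as r within cohorts 4, 5 and 7a and 0.628 without the 2 farthest animals.

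For TrkC the same value was -1.85 ± 0.19 (SD, 28 animals), from -2.24 to -1.41. HD animals had -1.73 ± 0.13 (n = 7), LD animals -1.82 ± 0.20 (n = 10), VHD animals -1.93 ± 0.19 (n = 6) and BD animals -1.96 ± 0.15 (n = 5). Heavy minus low within cohorts was 0.09 (exact p = 0.329), VHD minus LD, without cohort as a term, -0.11 (exact p = 0.309, and -0.041 within cohort 7a) and cohort 7a minus cohort 4 was 0.04 (exact p = 0.682), with adjusted p-values of 0.445 to 0.682. By the median of the exons instead of their summed reads, heavy minus low was 0.32 (exact p = 0.01, adjusted p = 0.06 over 6 tests), and by the mean of the exons it was 0.28 (exact p = 0.058). The value had no relation to the astrocyte score that passed the test (r = -0.095, rho = -0.060, permutation p = 0.63 and 0.761). The 2 end exons were also taken apart, a split made after the values were seen, and whether they differ from each other was not tested. With exon 14 alone, heavy minus low was 0.48, with an exact p of 0.0021 and an adjusted p of 0.013 over the 6 tests of that split. That adjustment does not cover the main tests, the other forms of the ratio or the choice of the split. With exon 15 alone it was 0.04 (exact p = 0.673). In cohort 7a exon 14 took 2.57% to 3.802% of the reads of NTRK3 in the 4 heavy animals. The 4 low animals had 2.21% to 2.53%, just below the heavy range. How many of all exons separate these animals in the same way was not counted. In cohort 7b exon 14 took 3.79% in the heavy animal and 2.65% to 3.02% in the 4 low ones. In cohort 4 the heavy animal (4.07%) lay inside the low range (1.71% to 4.23%). The 7 heavy animals of cohort 5, which has no low animal, had 1.82% to 4.08% with a mean of 2.71%, against means of 2.84% and 2.80% in the low animals of cohorts 4 and 7b. Exon 14 had only 20 to 79 normalized reads. In the test over all exons, its use in heavy against low animals did not pass (log2 difference 0.44, unadjusted p = 0.096 in limma's diffSplice).

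**Figure D4:**
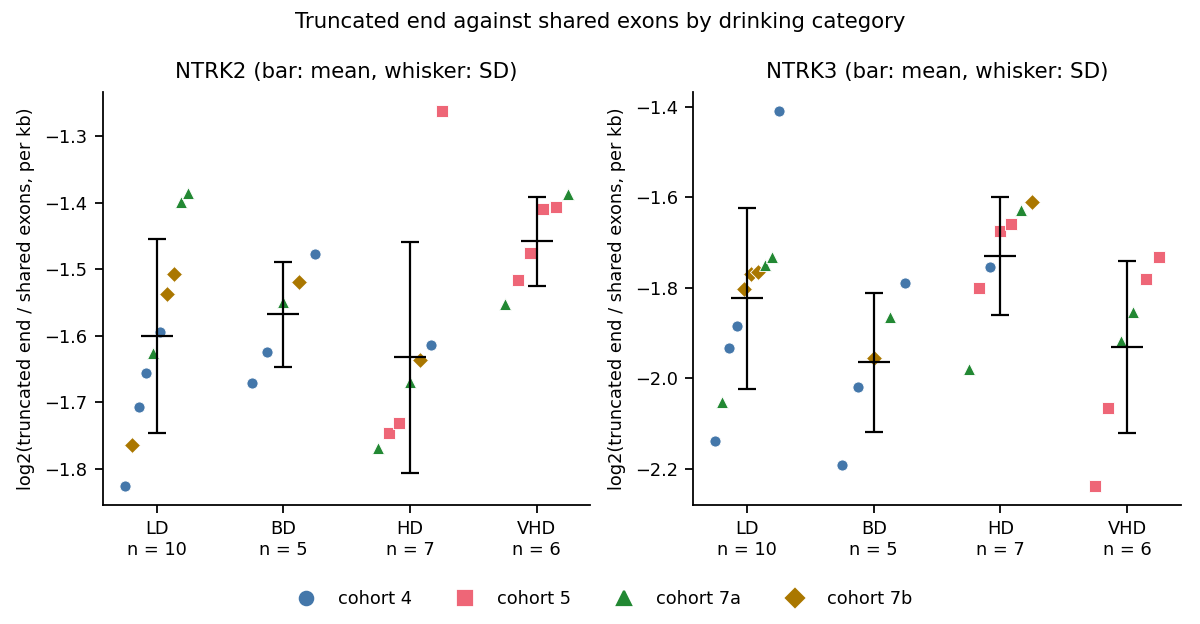
Log2 of reads per kb over the truncated end minus log2 of reads per kb over the shared exons, for NTRK2 and NTRK3, 1 point per animal by drinking category, with mean and SD. VHD animals lie at the upper end for NTRK2 (-1.55 to -1.39) but inside the range of LD animals, and the categories overlap for NTRK3.

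No difference in the relative exon use of NTRK2 or NTRK3 between heavy and low drinkers passed the test. Across 9817 genes, limma's F test called 9 genes (0.0917%) for heavy against low, 17 (0.173%) for VHD against LD and 12 (0.122%) for cohort 7a against cohort 4. NTRK2 and NTRK3 were not among them, with unadjusted p-values of 0.613 and 0.553 for heavy against low. By exon, 122 of 109212 exons (0.112%) were called for heavy against low and 117 (0.107%) for VHD against LD, none of them in these genes. For cohort 7a against cohort 4, 154 exons (0.141%) were called, and 1 of the 12 NTRK2 exons was among them. Exon 9 of NTRK2, the 36 bases at chr9:10185209-10185244, was used less in cohort 7a, with a log2 difference of -0.91 and an adjusted p of 0.041. The Simes test by gene, which weighs single exons, gave NTRK2 an adjusted p of 0.042 in this contrast and called 149 genes (1.52%). For heavy against low it called 103 genes (1.05%) and for VHD against LD 106 (1.08%), without NTRK2 or NTRK3.

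The exon 9 result came from a few animals. Exon 9 took 2.84% to 3.39% of the reads of NTRK2 in 23 animals and 0.797% to 0.905% in the other 5, with nothing between. The 5 were BD replicate 4, LD replicate 5 and VHD replicate 5 of cohort 7a, HD replicate 4 of cohort 5 and BD replicate 5 of cohort 7b. None of the 8 animals of cohort 4 had a low share of exon 9. The animals with a low share came from all 4 drinking categories (1 LD, 2 BD, 1 HD and 1 VHD). Low and high shares were found side by side within cohort 7a.

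Shares in 2 separate ranges were seen in other exons too, under a rule set after seeing the values, a wide gap in the sorted shares with at least 3 animals on each side. This rule was applied to the 2 receptor genes only, and how many exons of other genes meet it was not counted. It held for 4 of 12 exons of NTRK2 and 1 of 14 exons of NTRK3 with enough reads. Their gaps were 1.58-fold to 3.14-fold, and the widest gap in any other exon was 1.204-fold. NTRK2 exon 3, 72 bases long, took 1.57% to 1.89% of the reads in 17 animals and 3.47% to 4.35% in 11. NTRK2 exon 4, 69 bases long, took 1.23% to 1.52% in 3 animals and 2.65% to 3.59% in 25. NTRK2 exon 11, 100 bases long, took 1.48% to 1.97% in 7 animals and 3.11% to 3.81% in 21. NTRK3 exon 10, 24 bases long, took 0.363% to 1.24% in 11 animals and 2.44% to 4.64% in 17, the most uneven of these exons. For NTRK2 exon 3 the animals in the lower range were 6 of 10 LD, 2 of 5 BD, 4 of 7 HD and 5 of 6 VHD. Exons 1, 2, 5 to 8, 10 and 12 of NTRK2 showed no such gap. When the shared exons with 2 ranges were left out, the VHD minus LD difference of the truncated end of TrkB was 0.11 (exact p = 0.085), and no adjusted p passed.

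**Figure D5:**
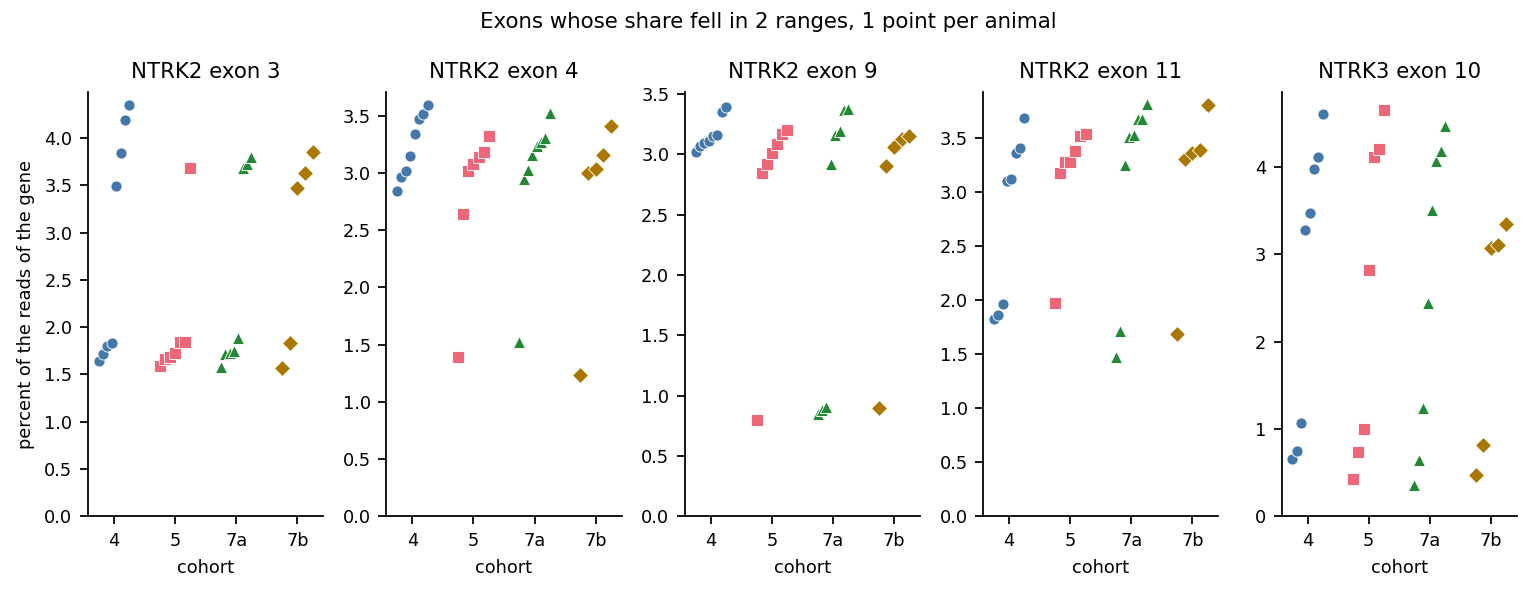
Share of the gene's reads (percent) in 4 exons of NTRK2 and 1 exon of NTRK3, 1 point per animal, by cohort. NTRK2 exon 9 lies at 2.84% to 3.39% in 23 animals and at 0.797% to 0.905% in 5, of which 3 are in cohort 7a and none in cohort 4.

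The relatives of the 4 genes were followed with lists of known pathway members. Of the 16 genes of the neurotrophin family and its receptors, 12 had a row and 10 were tested. None passed in any comparison. For VHD against LD, 6 were above 0 and 4 below, with a median log2 difference of 0.26 against 0.01 for all genes. SORT1, the sorting receptor of the precursors, had 4859 ± 516 (SD, n = 6) in VHD, 4722 ± 542 (n = 7) in HD, 4438 ± 556 (n = 5) in BD and 4293 ± 425 (n = 10) in LD animals. Heavy minus low was 0.19 (0.02 to 0.36, unadjusted p = 0.030, adjusted p = 0.998) and VHD minus LD was 0.25 (unadjusted p = 0.037, adjusted p = 0.583). The categories overlapped.

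NGFR, the p75 receptor, which cholinergic neurons carry, was high in the animals with high CHAT. The 6 markers of those neurons summed to 119 to 15496 normalized reads in VHD, 41.9 to 1632 in HD, 59.9 to 4678 in BD and 320 to 7071 in LD animals, and their part in the NGFR values was not tested. NGFR had 6237, 5952 and 4797 normalized reads in VHD replicates 3, 4 and 5 and 9.88 in VHD replicate 6. It ranged from 6.31 to 2816 in LD, from 0 to 1828 in BD and from 9.14 to 255 in HD animals, so the categories overlapped. The VHD minus LD difference of NGFR was 2.05 (-1.75 to 5.85) and did not pass.

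Among the genes that process and release the precursors, 12 of 15 with a row were tested and none passed. For heavy against low 9 were above 0 and 3 below, with a median of 0.08 against 0.00 for all genes. PCSK2, a protease of neuropeptide precursors, had 2203 ± 567.7 (SD, n = 6) in VHD and 1419 ± 612 (n = 10) in LD animals, and VHD was 2.001-fold of LD in the fit (1.18 to 3.40, unadjusted p = 0.012, adjusted p = 0.532). FURIN, which cleaves precursors in the Golgi, had a heavy minus low difference of 0.17 and PLAT, tissue plasminogen activator, one of 0.13 (both adjusted p = 0.998).

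All 38 measured Trk signalling genes were tested and none passed. For VHD against LD 20 were above 0 and 18 below, with 10 (26.3%) at an unadjusted p under 0.05, against 8.57% of all genes, and a median of 0.02 against 0.01 for all genes. PDPK1, the kinase that activates AKT, had the smallest p of this list in that comparison. It had 2629 to 3090 normalized reads in VHD animals and 3188 to 3770 in LD animals. PDPK1 was picked by its p in this comparison, so the gap between these ranges is no further support. The ranges also take no account of cohort. How many of all genes separate these 2 categories in the same way was not counted. The VHD minus LD difference of PDPK1 was -0.31 (SE 0.07, -0.46 to -0.15, unadjusted p = 3.8e-04, adjusted p = 0.522). MAP2K1, a kinase of the MAP kinase cascade, had 4476 ± 889 (SD, n = 6) in VHD and 5815 ± 789 (n = 10) in LD animals, a difference of -0.48 (unadjusted p = 0.0035, adjusted p = 0.522). PIK3CA, the catalytic subunit of PI3 kinase, had a heavy minus low difference of 0.17 (unadjusted p = 0.033) and HRAS one of -0.17 (unadjusted p = 0.048).

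Of the regulators of BDNF transcription, 14 were tested, 9 above 0 and 5 below for heavy against low (median 0.06), and none passed. NFATC4, a calcium-dependent factor, had a difference of 0.37, KDM6B, a histone demethylase, 0.27, and MEF2C 0.34 (adjusted p = 0.998 each). Of the 19 genes that respond to activity and to BDNF, 13 were above 0 and 6 below for heavy against low (median 0.07), and none passed. EGR4 had a VHD minus LD difference of -0.80 (unadjusted p = 0.039) and FOS one of 0.47 (unadjusted p = 0.041), both with an adjusted p of 0.583. VGF, a secreted peptide precursor induced by BDNF, had the smallest p of this list in the F test over cohorts (unadjusted p = 0.0066, adjusted p = 0.395), with 458 ± 158 (SD, n = 8) in cohort 4, 678 ± 183 (n = 7) in cohort 5, 528 ± 80.7 (n = 8) in cohort 7a and 686 ± 122 (n = 5) in cohort 7b.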

How the data were processed

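Reads over gene exons in 28 amygdala libraries (1910514 to 25928489 reads) were analysed, which sets the precision of low genes such as NTF3. Per the submitters' processing notes CASAVA, FastQC, STAR 2.3.0e and edgeR were used, in an order not given. Genome build and annotation were not given in the sources used here. Gene values as deposited are a signal, namely reads scaled by 1 upper-quartile factor per library, and whole reads were recovered from it within 0.02 reads. Exon values as deposited are a score, the same quantity rounded to whole numbers by the authors. Of 30 columns in each, 2 were not used here. An exon's length is end minus start plus 1, as 39.9% of inner exons are then multiples of 3, against 30.3% without the 1.

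Genes with at least 10 normalized reads in at least 5 libraries (13022) were tested on log2(value + 1) with limma 3.58.1 (R 4.3.3), cohort as a term and Benjamini-Hochberg adjustment at 0.05, two-sided. Fold changes are on this log2(value + 1) scale, which understates changes of low genes. Relative exon use was tested with diffSplice in genes with at least 3 such exons. edgeR 4.0.16 and DESeq2 1.42.0 were run on recovered reads as alternatives. Steps were tested on simulated data. The planned ratio of kinase to truncated exons could not be computed, since the rows hold no kinase exon, so the truncated end was set against the shared exons. Receptor exons were ordered and classed by position and length. The members and lists were chosen with earlier results of these data known. The genes named are the 4 members, NTF4, NGFR and SORT1, and from each list up to 4 genes with the smallest p for heavy against low, up to 2 for VHD against LD and up to 2 for cohort, of which a selection is printed. Some genes of these lists are not reported here.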

Additional observations from a re-analysis of the deposited data

Results flagged for a closer look

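In HD animals the truncated end of TrkB against its shared exons was -1.61 or lower in 6 animals and -1.26 in HD replicate 4, which stood apart from the other 6 by more than the 95% limit for a group of 7. Of 40 groups of 4 to 10 animals examined in this way for BDNF, NTRK2, NTRK3 and the 2 receptor ratios, this was the only 1 set apart, and chance sets about 1 in 20 apart. HD replicate 4 also had the highest value of all 28 animals, a low share of NTRK2 exons 3, 9 and 11 (1.68%, 0.797% and 1.97%), a BDNF value of 18.2 and TBR1 at 0. Exons 3, 9 and 11 are among the shared exons that the truncated end is set against, so low shares of them raise the ratio by its definition. By how much they did so in HD replicate 4 was not tested, nor was the part of BDNF and TBR1.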

How the results depend on the processing

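None of BDNF, NTRK2 and NTRK3 passed the gene test under any setting run. DESeq2 called 1 gene for heavy against low, 1 for HD and 4 for VHD against LD, 1 for cohort 7a against 4 and 19 over cohorts, where limma and edgeR called 0. Leaving out 1 animal gave 0 to 1 for HD, 0 to 1 for VHD, 0 to 11 for cohort 7a against 4 and 0 to 40 over cohorts, the last 2 maxima without LD replicate 2. For exon use the Simes test called 103 (heavy against low), 106 (VHD against LD) and 149 genes (cohort 7a against 4). A pseudocount of 8 gave 4 for heavy against low, leaving out 1 animal 6 to 16 (16 without BD replicate 1, HD replicate 5 or VHD replicate 6, 6 without BD replicate 4), and leaving out the 3 shallowest libraries 19 for cohort 7a against 4.

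Directions turned for small differences, and the cause was not tested. For BDNF, cohort 7a minus 4 was -0.11 with edgeR, -0.094 with DESeq2, -0.13 without the 3 shallowest libraries, -0.063 with marker scores and -0.35 to 0.44 with 1 animal left out. For NTRK2, heavy minus low was -0.026 without the 3 shallowest libraries, -0.13 in cohort 7a alone and -0.031 to 0.12 with 1 left out. HD minus LD was 0.016 with edgeR, 0.020 with DESeq2, 0.097 with marker scores, 0.0065 without cohort and -0.12 to 0.056 with 1 left out. BD minus LD was -0.053 with marker scores (-0.016 to 0.14 with 1 left out), VHD minus LD -0.016 with marker scores (0.13 to 0.41), and cohort 7a minus 4 was 0.017 without the 3 shallowest (-0.14 to 0.0087). For NTRK3, BD minus LD was 0.066 with marker scores and 0.0083 without cohort (-0.12 to 0.074 with 1 left out), VHD minus LD 0.12 and the trend 0.042 with marker scores (trend -0.029 to 0.011), and heavy minus low -0.056 without cohort.

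Without cohort, heavy minus low was -0.20 for EZH2, -0.024 for FURIN, 0.018 for MAGED1, -0.12 for MEF2C and 0.0072 for SCG2. EGR4 was at 0.0087 without the 3 shallowest libraries, 0.049 in cohort 7a alone and -0.41 to 0.0087 with 1 left out. With marker scores, VHD minus LD was 0.0046 for HDAC2. For the truncated ends, NTRK2 heavy minus low was 0.038 without cohort strata. NTRK3 VHD minus LD was 0.023 by the median of exons and 0.054 with exon 14 alone, cohort 7a minus 4 was -0.013 by the mean of exons, -0.099 with exon 14 alone and -0.00022 to 0.11 with 1 left out, and heavy minus low was 0.32 by the median of exons and 0.48 with exon 14 alone. The mean of exons, single end exons, cohort 7a alone for the ratios, the Simes test for VHD and for cohort, and exon use without the 3 shallowest libraries were chosen after seeing the data. No paired analysis was possible because the replicate numbers follow the order of deposit and each animal gave 1 library. Depth limits NTF3 and NTRK3 exon 14.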
